A study of Mus musculus with 20 samples.

Results

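Epididymal white adipose tissue (eWAT) is the fat depot that lies on the epididymis, the duct in which sperm mature after leaving the testis. Genes known for their expression in segments of that duct were followed through the eWAT libraries of this study. Members were picked by gene symbol: beta-defensins (Defb), Kazal-type protease inhibitors (Spink), Spag11 genes, 5 ribonuclease genes (Rnase9 to Rnase13), the cystatins Cst8, Cst11 and Cst12, the cysteine-rich secretory proteins (Crisp), 6 lipocalins (Lcn), Gpx5, Adam7 and Spint4. This gave 68 of the 20738 genes in the eWAT count table and 4 of the 15608 in the liver table. Messenger RNA had been sequenced from eWAT and liver of male mice aged 2 months, 5 libraries for each tissue and genotype. One genotype was wild type (WT). The other was IR 4A, in which the insulin receptor is mutated at its binding motif for the checkpoint protein MAD2. Strain, littermate status and how the depot was trimmed from the duct are not given in the sources used here. The labels number the replicates without naming animals, and a p-value therefore speaks only to how much the libraries of a group vary, part of which may be technical.

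The epididymis runs from the initial segment through the caput and corpus to the cauda, and its principal cells secrete a different set of proteins in each stretch. Most of the families above are secreted into the lumen, where they coat sperm, bind small hydrophobic molecules or restrain proteases and microbes. Androgen maintains this expression along the duct, and factors arriving from the testis in the luminal fluid maintain the initial segment. Members were sorted by the segment for which each is best known. There were 5 members of the initial segment and proximal caput, 13 of the caput, 1 of the corpus and cauda, 10 known mainly from other organs, and 39 given no class.

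All libraries stood at comparable depth, with 13651874 to 21615358 estimated counts per eWAT library, but 1 of them stood apart in these genes. The members took 3.20% to 6.59% of the counts in 9 eWAT libraries and 0.796% in WT replicate 4 (WT 4). In liver they took at most 0.000432%, and the 4 members listed there (Defb1, Lcn12, Rnase13 and Spink5) reached at most 40 counts in any library. Levels below are CPM, counts relative to TMM-scaled library size. In bulk tissue, fewer cells of a type and less RNA per cell cannot be told apart. WT 4 was singled out with earlier results of these data known, so its values are given as a description with no test.

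WT 4 also differed in other tissues' markers. The summed level of 7 adipocyte genes was 24789 CPM in WT 4, against 7581 to 12044 CPM in the other WT libraries and 2264 to 12659 CPM in IR 4A. All 7 were higher in WT 4 than in the other 9 libraries. The summed level of 5 keratin and adhesion genes that epithelium and mesothelium share (Epcam, Cdh1, Krt8, Krt18 and Krt19) was 514 CPM in WT 4 and 707 to 1201 CPM in the other 9. The 4 basal cell genes (Krt5, Krt14, Trp63, Cldn1) summed to 68.9 CPM in WT 4 and 123 to 185 CPM elsewhere. The 5 mesothelial genes, of the lining on the surface of the depot, summed to 219 CPM in WT 4 against 117 to 153 CPM in the other WT libraries. Of these Msln, Upk3b and Lrrn4 were higher in WT 4 than in the other 9 libraries, while Upk1b was lower.

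**Figure D1:**
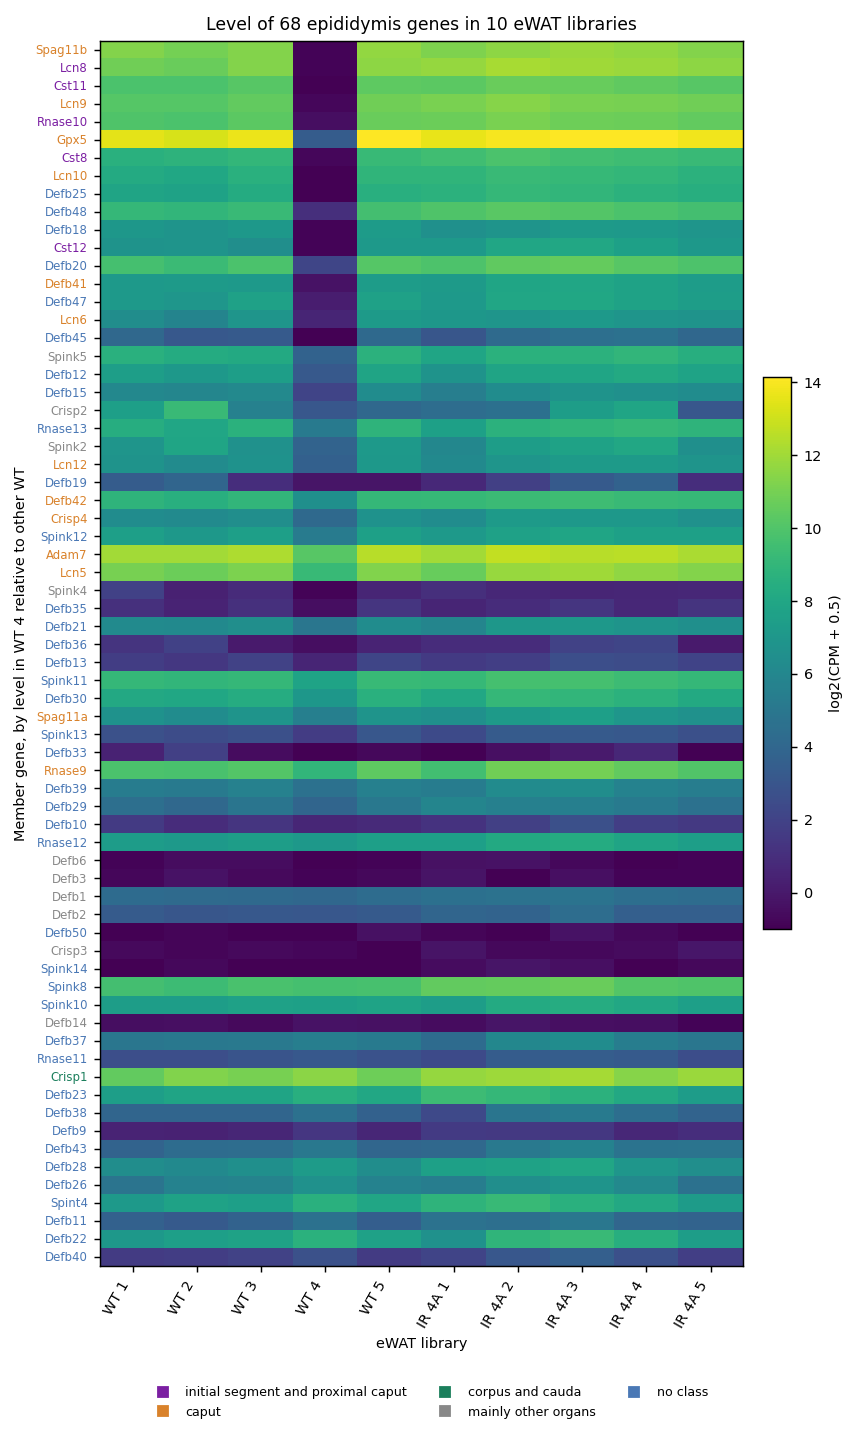
Level of each of the 68 members (rows, gene names coloured by segment class) in the 10 eWAT libraries (columns), as log2(CPM + 0.5). Rows run from the member lowest in WT 4 relative to the other WT libraries to the highest: the WT 4 column is dark in its upper rows and matches its neighbours in the lower ones.

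Genes of the initial segment were close to absent from WT 4 and abundant in each of the other 9 libraries. Lcn8, a lipocalin of the initial segment, stood at 1840, 1664, 2538 and 2979 CPM in WT 1, 2, 3 and 5. It stood at 0.0502 CPM in WT 4, which is 1 count, and at 3452, 4547, 4070, 3660 and 3046 CPM in IR 4A 1 to 5. WT 4 was the low library, and the others spanned less than a factor of 3. Against the median of the other WT libraries Lcn8 was 43578-fold lower in WT 4 (95% exact Poisson interval 7821 to 1.72e+06, counting error only).

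Cst11, a cystatin of the same stretch, stood at 937, 941, 1193 and 1341 CPM in WT 1, 2, 3 and 5. IR 4A had 1290, 1628, 1582, 1383 and 1160 CPM. WT 4 had 0 counts of Cst11, at least 7079-fold lower than the other WT libraries when 3 counts are taken as the floor. Rnase10, a secreted ribonuclease-like protein that sperm need to gain the ability to pass into the oviduct, had 1010, 931, 1272 and 1669 CPM in the other WT libraries and 1680, 2159, 1746, 1680 and 1475 CPM in IR 4A. WT 4 had 5 counts, or 0.251 CPM. Cst8 (CRES, a cystatin-related protein) had 2 counts in WT 4 against 6674 to 13360 counts elsewhere, and Cst12 had 1 count against 1708 to 3992. All 5 members of the class were lower in WT 4 than in any other library.

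The caput genes were lower in WT 4 as well, but by very unequal amounts. Gpx5, a secreted glutathione peroxidase of the caput that protects sperm from oxidation, was the most abundant member in the other 9 libraries, with 9375 to 18004 CPM. It stood at 11915, 9375, 13105 and 17384 CPM in WT 1, 2, 3 and 5, at 10.1 CPM in WT 4, and at 12534, 15857, 18004, 17601 and 14236 CPM in IR 4A. Its 202 counts in WT 4 were 1233-fold lower than in the other WT libraries (exact Poisson interval 1074 to 1422). Spag11b, a defensin-like sperm-associated antigen, had 2562, 2042, 2571 and 3232 CPM in the other WT libraries. IR 4A had 2342, 2970, 3770, 3342 and 2620 CPM. In WT 4 Spag11b had 1 count. The lipocalins Lcn9 and Lcn10 had 2 and 0 counts in WT 4, against 16945 to 39241 and 3904 to 9007 counts elsewhere, and Defb41 had 7 counts against 2133 to 3646.

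Other caput genes stayed well within reach of detection in WT 4. Adam7, a membrane protein passed from the caput epithelium to sperm, stood at 4142, 4121, 4897 and 5858 CPM in WT 1, 2, 3 and 5 and at 1185 CPM in WT 4. IR 4A had 4172, 6812, 5808, 6040 and 4758 CPM. Adam7 was 3.81-fold lower in WT 4, as was Lcn5, a retinoic acid-binding lipocalin, by 3.74-fold (590 CPM against 1738 to 2496 CPM in the other WT libraries). Defb42 was 5.18-fold lower, Crisp4 4.96-fold, Spag11a 2.38-fold and Rnase9 2.05-fold, the last at 489 CPM against 898 to 1310 CPM. All 13 caput members were lower in WT 4 than in any other library, with a median log2 ratio of -3.11 (from -12.19 to -1.03, 0.5 CPM added to both levels, which understates the change of genes near 0).

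Crisp1, a protein that coats sperm in the corpus and cauda and takes part in fusion with the egg, behaved the other way. It stood at 1457, 2425, 2128 and 1780 CPM in WT 1, 2, 3 and 5 and at 2923 CPM in WT 4. IR 4A had 3402, 3915, 4302, 2649 and 3718 CPM. WT 4 was the highest WT library and lay within the range of IR 4A. Gpx5 had 3.68 to 9.77 counts for each Crisp1 count in 9 libraries and 0.00347 in WT 4. Crisp1 made up 33.8% of all member counts in WT 4 and 3.57% to 8.13% elsewhere, while the initial segment class made up 0.00523% and 11.9% to 16.7%.

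**Figure D2:**
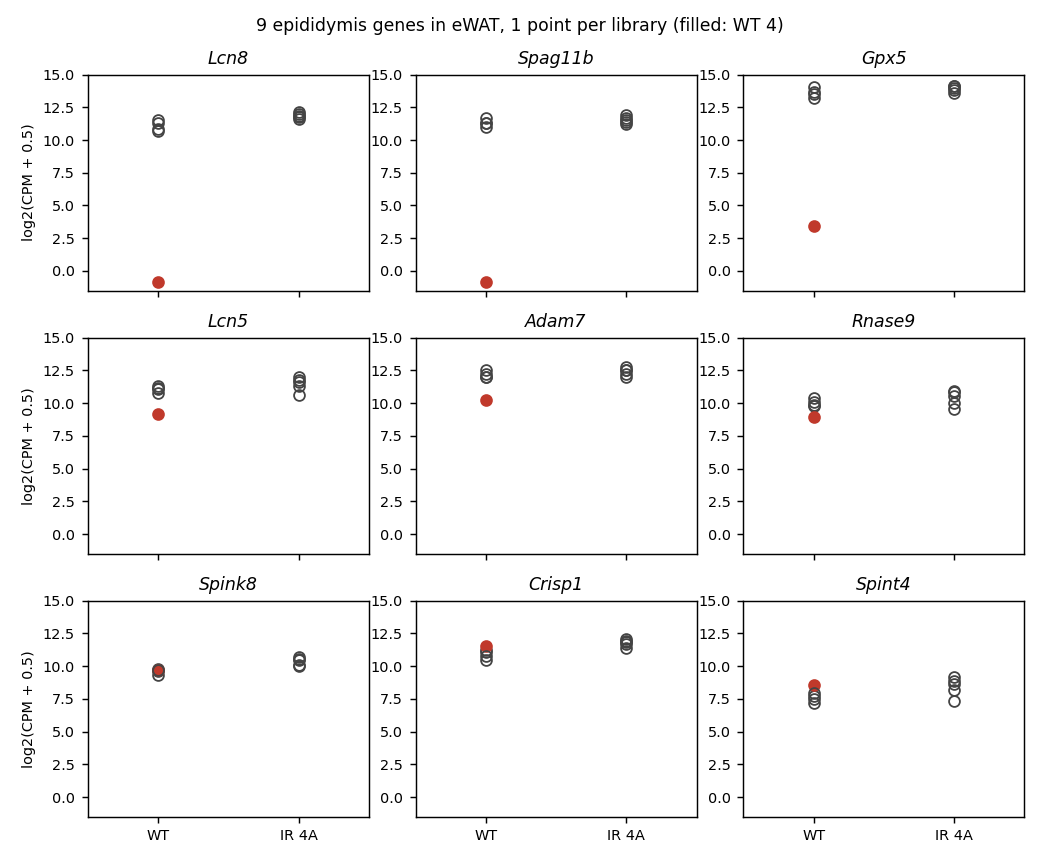
Levels of 9 members in the eWAT libraries as log2(CPM + 0.5), 1 point per library, by genotype, with WT 4 filled in red. Lcn8, Spag11b and Gpx5 lie far below all other points in WT 4, Lcn5, Adam7 and Rnase9 moderately below. Spink8 lies among the other WT points and Crisp1 and Spint4 at their upper end.

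Members without a class spread over the whole range between these patterns. Defb25 and Defb45 had 0 counts in WT 4, against 3266 to 7887 and 110 to 404 counts elsewhere. Defb18 had 1 count against 1368 to 2668. Defb48 had 531, 507, 602 and 782 CPM in the other WT libraries and 1.56 CPM in WT 4, with 983, 1219, 1075, 933 and 788 CPM in IR 4A. Defb20 had 802, 648, 932 and 1116 CPM in the other WT libraries and 4.07 CPM in WT 4, with 943, 1412, 1505, 1194 and 951 CPM in IR 4A. Defb48 and Defb20 were thus detected in WT 4, at 364-fold and 213-fold lower levels. Defb47 was 268.5-fold lower, Defb12 20.1-fold, Defb15 17.6-fold and Rnase13 10.1-fold.

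Between these extremes, several members kept a part of their level. Defb12 had 180, 136, 180 and 231 CPM in the other WT libraries, 8.94 CPM in WT 4, and 109, 233, 235, 290 and 219 CPM in IR 4A. Rnase13 had 351, 248, 402 and 455 CPM in the other WT libraries, 37.2 CPM in WT 4, and 198, 430, 484, 544 and 460 CPM in IR 4A. Both had IR 4A 1 as their next lowest library. Spink11 had 531, 500, 536 and 596 CPM in the other WT libraries, 218 CPM in WT 4, and 569, 815, 811, 655 and 536 CPM in IR 4A. Defb30 had 285, 260, 334 and 382 CPM in the other WT libraries, 128 CPM in WT 4, and 272, 531, 495, 429 and 297 CPM in IR 4A. For both genes, WT 4 was the only library under 250 CPM. Rnase12 lay closer, with 132 CPM in WT 4 against 145 to 185 CPM in the other WT libraries.

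The remaining members of this kind are given by their level in WT 4 and their range in the other 9 libraries. Spink12 had 38.8 CPM against 134 to 243 CPM, Defb21 30.3 CPM against 59.5 to 134 CPM, and Defb39 24.8 CPM against 37.7 to 85.5 CPM. The lipocalin genes Lcn12 and Lcn6, both of the caput, had 11.9 CPM against 71.4 to 152 CPM and 1.00 CPM against 56.4 to 151 CPM. The defensin gene Defb29 had 14.9 CPM against 16.6 to 59.0 CPM. Spink13 had 2.66 CPM against 4.72 to 9.55 CPM, Defb10 1.06 CPM against 1.21 to 5.85 CPM, and Defb13 0.954 CPM against 2.23 to 5.71 CPM. All 9 were lower in WT 4 than in any other library. Spink4, Defb35 and Defb36, at 0.251 CPM or less in WT 4, stayed under 5 CPM in every library.

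Several defensins and protease inhibitors stood within or above the range of the other WT libraries in WT 4. Spink8, a Kazal-type inhibitor, had 786, 652, 872 and 836 CPM in WT 1, 2, 3 and 5 and 820 CPM in WT 4. IR 4A had 1442, 1488, 1642, 1109 and 1017 CPM. Spint4, a Kunitz-type inhibitor, had 382 CPM in WT 4 against 143 to 251 CPM in the other WT libraries and 158 to 583 CPM in IR 4A. Defb22, a defensin of the sperm coat, had 408 CPM in WT 4 against 134 to 210 CPM in the other WT libraries and 99.4 to 606 CPM in IR 4A. Both were higher in WT 4 than in every other WT library and overlapped IR 4A. The same held for Defb23 (368 CPM), Defb28 (156 CPM), Defb26 (99.8 CPM), Defb37 (43.7 CPM), Defb43 (32.3 CPM), Defb38 (24.97 CPM), Defb11 (24.2 CPM), Rnase11 (8.39 CPM), Defb40 (6.33 CPM) and Defb9 (2.11 CPM). Spink10 lay among the other WT libraries, with 198 CPM against 171 to 223 CPM.

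Counted over the 61 tested members, which all had a median of at least 10 counts in the other WT libraries, 44 lay below all 9 other libraries in WT 4, 17 lay within them and 0 above. Of the 16420 tested genes with that minimum, 24.4% lay below and 26.4% above. The log2 ratio was under -6 for 16 of the 61 (0.207% of all such genes), under -3 for 24 (4.05%) and at least 0 for 15. The share of all such genes with a ratio of at least 0 was not counted, but their median ratio was -0.03. Under 3 counts in WT 4 were 11 of the 61, against 2.42% of all genes. A further 6 untested members, low in all libraries, were also under 3 counts there, 17 of 68 in all. Among the 397 tested genes with that minimum and under 3 counts in WT 4, 11 were members. Of the 20 of these most abundant in the other WT libraries, 9 were members. These shares describe 1 library and carry no test.

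**Figure D3:**
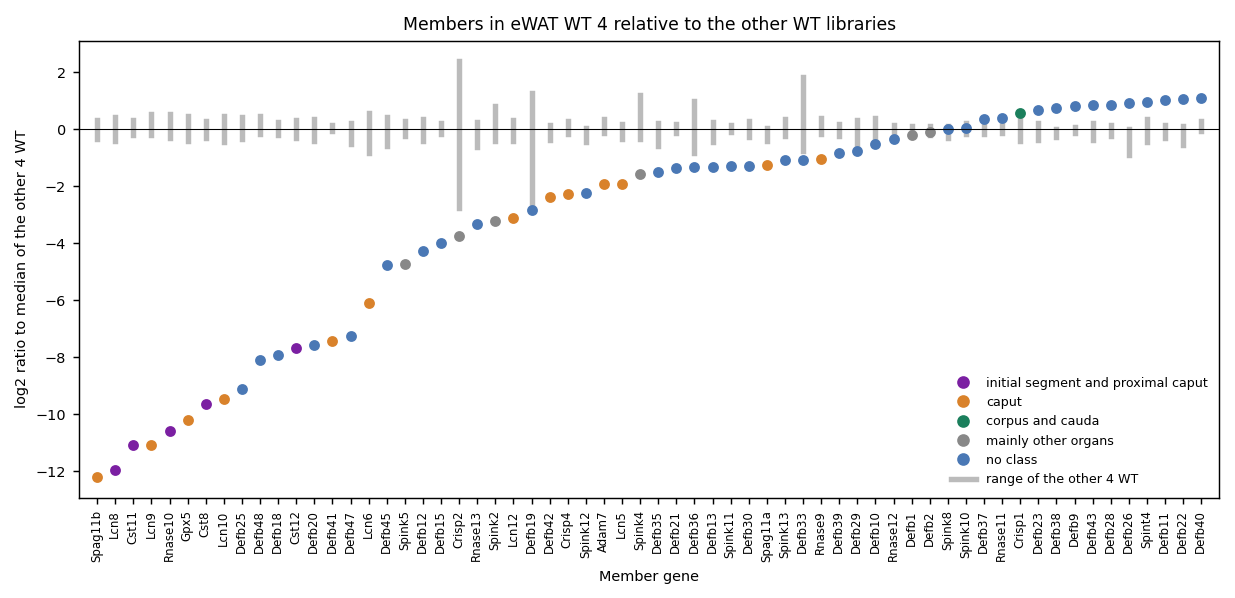
Log2 ratio of the level in WT 4 to the median of the other 4 WT libraries (0.5 CPM added) for 62 members, coloured by segment class, with grey bars for the range of the other 4. The 5 initial segment genes lie at -7.67 to -11.96, caput genes spread from -12.19 to -1.03, and Crisp1 lies at 0.58.

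Members that neighbour each other on a chromosome were alike in some pairs and far apart in others. Of 34 pairs of members that are adjacent protein-coding genes in RefSeq, 7 differed by over 6 in their log2 ratio and 11 by under 1. Members that are not adjacent were not compared in this way, so an effect of adjacency was not tested. Among the like pairs, Defb26 and Defb28 differed by 0.06 and Defb22 and Defb26 by 0.14. On chromosome 2 Lcn8 (1 count in WT 4) lies next to Lcn5 (11738 counts). In the chromosome 2 defensin cluster Defb20 (81 counts) lies between Defb23 (7318) and Defb22 (8127), and Defb25 (0) ends a run that holds Defb26 (1987) and Defb28 (3103). On chromosome 14 Rnase10 (5 counts) neighbours Rnase9 (9727), and Defb47 (13) neighbours Defb43 (643). On chromosome 8 Spag11b (1 count) lies beside Spag11a (900). Spag11a shares 38.7% of its 31-base words with the transcript model Gm45826, so reads could be split between them. In all, 9 members share over 10% of such words with another gene. Among these 9 are Defb11 (30.3%) and Defb9 (17.9%), both higher in WT 4 than in every other WT library.

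**Figure D4:**
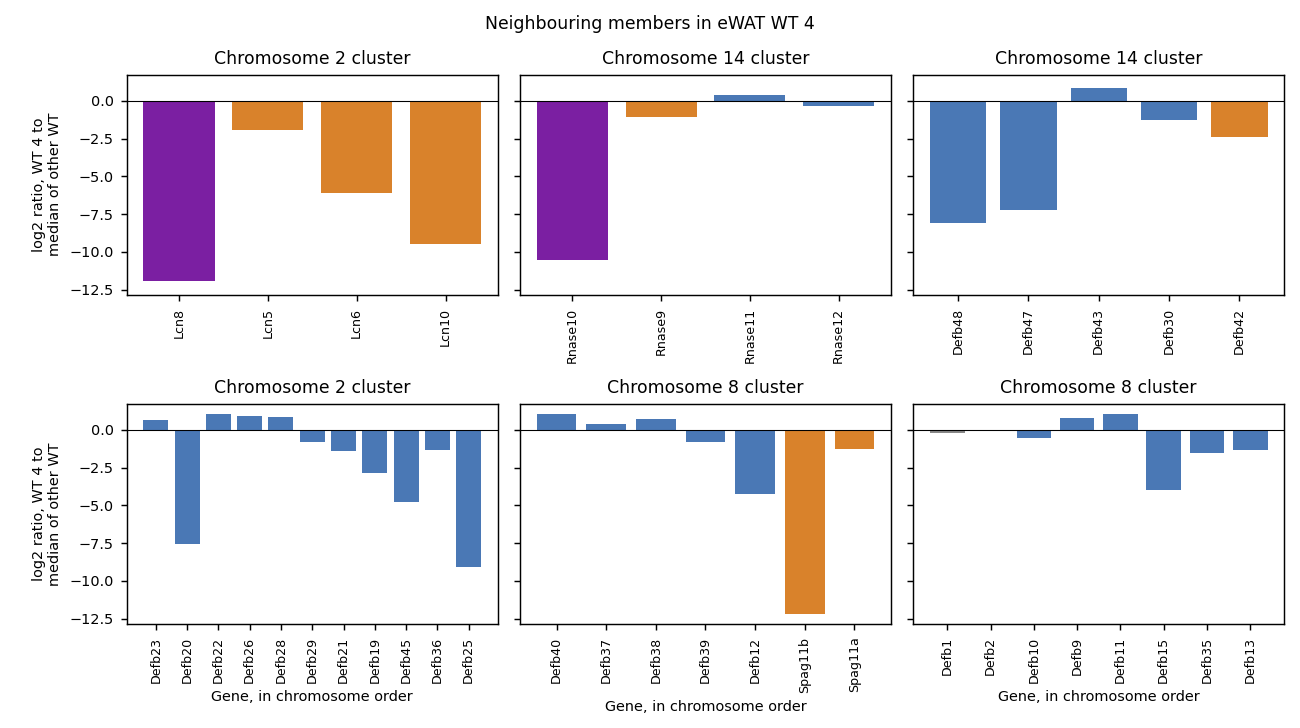
Log2 ratio of WT 4 to the median of the other WT libraries for members in 6 gene clusters, each drawn in chromosome order with equal spacing (bars from 0, coloured by class as in the ratio plot). Adjacent genes such as Lcn8 and Lcn5 or Defb20 and Defb22 differ by 10.06 and 8.64.

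The sequences before the starts of 2 such neighbour pairs are shown, since the members of each pair lie side by side and differ by a log2 ratio of 8.64 or more in WT 4. They are from RefSeq on the GRCm38.p6 build, 5′ to 3′ on the gene's strand, up to 250 bases before the start, leaving out bases within the gene itself. Capitals mark the ETS-family (PEA3) motif AGGAAG or its complement CTTCCT, searched on both strands because the ETS factors ETV4 and ETV5 are known to act on the proximal duct. Lcn8 lies at chr2:25652868-25653117 (+), Lcn5 at chr2:25657702-25657931 (+), Defb20 at chr2:152476813-152477062 (+) and Defb22 at chr2:152490139-152490388 (-).
Lcn8: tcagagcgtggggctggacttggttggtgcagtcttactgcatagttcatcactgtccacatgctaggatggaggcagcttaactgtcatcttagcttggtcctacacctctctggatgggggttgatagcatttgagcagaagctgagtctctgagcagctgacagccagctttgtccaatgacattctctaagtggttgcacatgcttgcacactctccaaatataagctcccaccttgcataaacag
Lcn5: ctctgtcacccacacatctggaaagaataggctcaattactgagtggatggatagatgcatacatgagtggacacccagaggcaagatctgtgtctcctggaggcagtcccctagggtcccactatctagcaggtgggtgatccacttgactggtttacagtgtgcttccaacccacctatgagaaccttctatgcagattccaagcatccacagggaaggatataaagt
Defb20: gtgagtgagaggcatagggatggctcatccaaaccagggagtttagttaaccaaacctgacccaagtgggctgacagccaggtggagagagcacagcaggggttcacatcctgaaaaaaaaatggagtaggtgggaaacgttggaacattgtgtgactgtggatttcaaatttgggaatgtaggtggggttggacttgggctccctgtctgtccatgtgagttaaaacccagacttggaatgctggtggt
Defb22: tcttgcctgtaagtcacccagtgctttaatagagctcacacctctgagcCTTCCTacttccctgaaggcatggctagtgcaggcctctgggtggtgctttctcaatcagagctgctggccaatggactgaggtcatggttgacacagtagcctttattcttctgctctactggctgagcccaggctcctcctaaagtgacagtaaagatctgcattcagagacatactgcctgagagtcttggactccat
Among these 4 windows the Defb22 window holds 1 motif and the other 3 hold 0. Of 45 members with a window in the table, 14 (31.1%) hold the ETS motif in 250 bases, against 32.3% of 27025 genes. It was in 2 of 12 members with a log2 ratio under -6 in WT 4 and in 5 of 15 with at least -1. A match is a description of letters only.

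Genes linked to the pathway by which the testis maintains the initial segment were also low in WT 4. Adam28, a membrane protease, had 18 counts in WT 4 and 11493 to 22261 elsewhere. Ovch2, a protease linked to that pathway, had 46 counts against 7053 to 13655. Ros1, the receptor that receives the testis-derived signal, had 340 against 2163 to 3547. The ETS factors Etv4 and Etv5, which act in that pathway, had 15 and 275 against 279 to 893 and 2080 to 4391. Nell2, which encodes the testis-derived ligand, was low throughout, with 15 counts in WT 4 and 2 to 158 elsewhere.

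Among principal cell transport genes, the chloride channel gene Cftr had 52 counts in WT 4 against 533 to 710 elsewhere. Aqp9, a water and glycerol channel, had 1026 against 1042 to 1700. Car4, a membrane carbonic anhydrase, ran the other way, with 4140 counts in WT 4 against 1112 to 2345. The sodium-proton exchanger gene Slc9a3 had 86, within the 51 to 120 of the other libraries. The 4 transport genes summed to 266 CPM in WT 4, above the 192 to 211 CPM of the other WT libraries and within the 227 to 324 CPM of IR 4A. Car4 alone gave 208 CPM of the sum in WT 4 and 72.9 to 106 CPM in the other WT libraries. The higher sum in WT 4 thus came from Car4. The 3 clear cell genes summed to 23.4 CPM in WT 4 and 43.6 to 91.0 CPM elsewhere. Ces5a, a carboxylesterase of the distal duct, had 16380 counts in WT 4 and 7150 to 20093 elsewhere. Akr1b7, the other of the 2 genes listed for the distal duct and vas deferens, had 195 counts in WT 4 and 52 to 67393 elsewhere. All 4 basal and all 3 clear cell genes had a lower CPM in WT 4 than in any other library. These basal, clear cell and distal genes were still measured in WT 4, where most initial segment genes were under 3 counts. The part of any cell type in the WT 4 differences was not tested.

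Across the other 9 libraries the members kept more even levels. Per kilobase of the longest GENCODE transcript, the highest median levels were those of Gpx5 (8504 CPM per kilobase), Lcn8 (4678), Lcn5 (3585), Lcn9 (2247), Cst11 (2098) and Crisp1 (1871). The SD of the log2 level over these 9 libraries had a median of 0.43 over the 61 tested members, from 0.21 to 2.10, and of 0.30 over all genes tested. It was 0.22 to 0.54 for the 16 members whose log2 ratio in WT 4 was under -6, and 0.37 to 0.86 for the 15 with at least 0. Among the latter, Defb22 was lowest in IR 4A 1 (99.4 CPM) and highest in IR 4A 3 (606 CPM), and Defb38 likewise (4.58 and 37.0 CPM). Spint4 was lowest in WT 1 (143 CPM) and IR 4A 5 (158 CPM) and highest in IR 4A 2 (583 CPM).

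Akr1b7, a gene of the vas deferens, was high in 4 libraries. It had 67393 counts in IR 4A 5, 20261 in IR 4A 1, 17172 in WT 2 and 8540 in WT 3. The other 6 had 52 to 195, with WT 4 at 195. The part of Akr1b7 in the members' levels was not tested.

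A few members known from the testis varied separately. Crisp2, a protein of the acrosome and sperm tail, stood at 185, 613, 49.8, 8.24 and 17.1 CPM in WT 1 to 5 and at 21.1, 23.3, 171, 238 and 8.03 CPM in IR 4A 1 to 5. It was high in WT 1, WT 2, IR 4A 3 and IR 4A 4. The summed level of 7 spermatid genes (the protamines Prm1 and Prm2 among them) was 1515, 5091, 596, 140 and 296 CPM in WT 1 to 5, against 286, 409, 1739, 2377 and 122 CPM in IR 4A, high in the same 4 libraries. Defb19, which lies in the chromosome 2 cluster, had 10.3, 14.9, 1.48, 0.402 and 0.424 CPM in WT 1 to 5, against 1.15, 3.14, 9.08, 13.2 and 1.44 CPM in IR 4A. Its 4 highest libraries were again those. Defb36 and Defb33 shared these 4 highest libraries at low levels, at most 4.01 and 3.21 CPM. Spink2, an acrosomal protease inhibitor, had 119, 238, 99.5, 13.8 and 148 CPM in WT 1 to 5, against 64.3, 173, 211, 267 and 94.3 CPM in IR 4A, so its ordering was less like that of the spermatid genes. Spink5, a skin protease inhibitor, had 389, 314, 297, 12.96 and 426 CPM in WT 1 to 5, against 238, 410, 415, 494 and 353 CPM in IR 4A, with WT 4 as its low library.

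Outside the rule, the 10 genes whose log2 level ran most like the summed level of the members over the 10 eWAT libraries were Tmem150c, Chd9, Hoxd8, Bmyc, Slc17a9, Tbc1d8, Cryba4, Gm16136, Lingo1 and Mmgt2. Their Pearson correlation was 0.993 to 0.997 over 10 libraries, where WT 4 is the far point, and 0.945 to 0.977 without it. Cryba4, a crystallin gene, had 0.502 CPM in WT 4 and 25.4 to 81.3 CPM elsewhere.

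The genotype comparison asked whether these genes differ between IR 4A and WT eWAT. Of the 68 members 61 passed the filter on low counts. None was called higher or lower in IR 4A (quasi-likelihood test of edgeR, Benjamini-Hochberg adjusted over 16476 genes, adjusted p from 0.164 to 0.991), as against 0% of all genes called higher and 0.0121% called lower. At an unadjusted p under 0.05, 8 members were higher and 0 lower, where 6.63% of all genes were higher. The log2 fold change was positive in 59 of 61, with a median of 0.59, where 40.1% of all genes were positive and their median was -0.08. In 8 of the 61 every IR 4A library lay above every WT library (2.52% of all genes), and in 0 below (3.22%). By class the median was 0.93 for the 5 members of the initial segment, 0.59 for the 13 of the caput, 0.59 for the 36 without a class and 0.38 for the 6 tested members known mainly from other organs. Without WT 4 these medians were 0.61, 0.37, 0.45 and 0.10.

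Spink8 had the lowest adjusted p. WT libraries had 793 ± 84.7 CPM and IR 4A libraries 1339.5 ± 265 CPM (SD, n = 5), which edgeR put at 0.76 on the log2 scale (SE 0.16, adjusted p = 0.164). Defb2 had 0.72 (SE 0.18, edgeR adjusted p = 0.186) and Defb1, a widely expressed epithelial defensin, 0.37 (SE 0.11, edgeR adjusted p = 0.214). Defb2 ran from 7.67 to 9.72 CPM in WT and from 11.4 to 20.4 CPM in IR 4A, and Defb1 from 16.2 to 20.2 CPM and from 20.2 to 26.8 CPM. For Spink8 and Defb2 all IR 4A libraries lay above all WT libraries. For Defb1 the highest WT and the lowest IR 4A library were level at the precision printed, although Defb1 is among the 8 counted above. Crisp1 had 0.75 (SE 0.22, edgeR adjusted p = 0.217), with overlap of the groups. Defb2 and Crisp1 share 30.2% and 10.9% of their 31-base words with other genes, so their values are less certain. Lcn8 had 1.06 with an SE of 1.21 and Gpx5 0.59 with an SE of 1.04. Without WT 4 both estimates were smaller, as given next.

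Without WT 4, 0 members were called (lowest edgeR adjusted p = 0.247), 26 had an unadjusted p under 0.05, all higher, where 6.26% of all genes did so, and the median log2 fold change was 0.44. Lcn8 then had 0.73 and Gpx5 0.27, and 56 of 61 were positive. In 10 of 61 members all IR 4A libraries lay above the 4 remaining WT libraries (2.98% of all genes). DESeq2 on all 10 libraries called 6 members higher (Spink8, Defb2, Defb1, Crisp1, Rnase12 and Defb29) and 0 lower, where it called 3.05% of all genes higher. The adipocyte sums given above were lowest in IR 4A 3 (2264 CPM) and IR 4A 4 (3375 CPM), which with IR 4A 2 had the highest summed level of the members (61956, 55059 and 60061 CPM). The shared epithelial and mesothelial genes summed to 1011 to 1201 CPM in IR 4A and 514 to 969 CPM in WT, with no overlap. The mesothelial genes summed to 52.8 to 102 CPM in IR 4A and 117 to 219 CPM in WT, again with no overlap. Taken singly, Upk1b and Wt1 of the mesothelial genes overlapped, and Upk1b had a positive log2 fold change (0.13). Cdh1, Krt8 and Krt19 of the shared genes overlapped too. The sums of the other marker lists overlapped between the genotypes. Complete separation was found for 2.52% of all tested genes with IR 4A higher and 3.22% with IR 4A lower. The part of tissue composition in the genotype difference was not tested. Among the 52 tested genes on the lists of duct, sperm, gland, mesothelial and adipocyte markers, the lowest edgeR adjusted p was 0.189, for Aqp9.

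**Figure D5:**
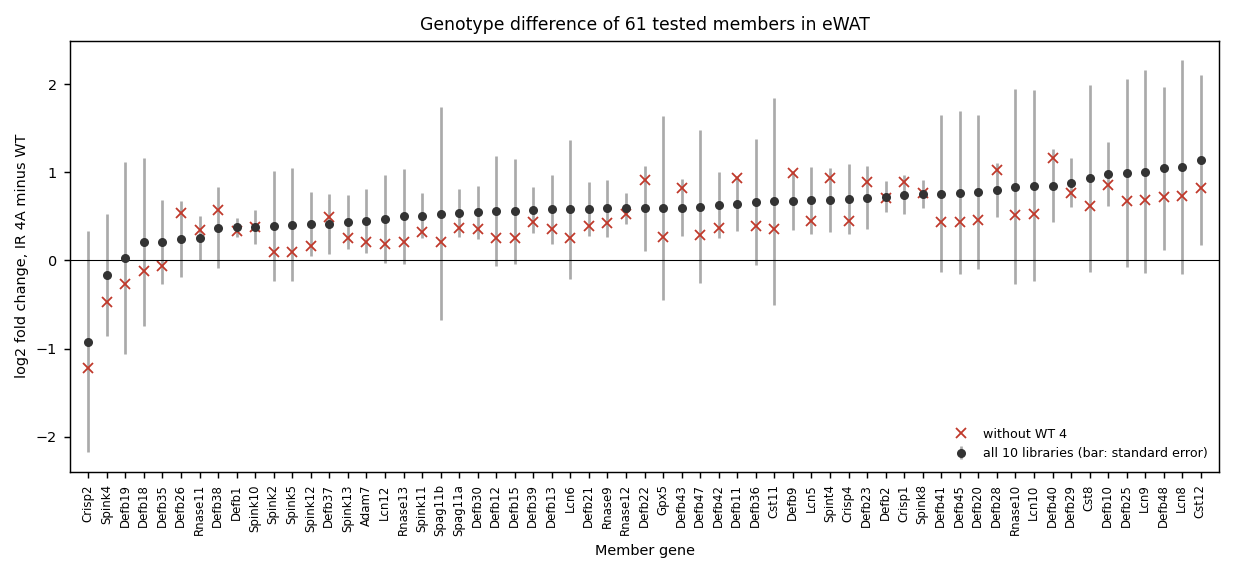
Log2 fold change of IR 4A minus WT for the 61 tested members (black, bars are standard errors over all 10 libraries) and the same without WT 4 (red crosses). Nearly all lie above 0, 59 with all libraries and 56 without WT 4, and none passed the threshold.

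The 7 members that did not pass the filter (Crisp3, Defb3, Defb6, Defb14, Defb33, Defb50 and Spink14) were low in all libraries. Of these Defb33 reached 49 counts in WT 2 and 0 in 3 libraries including WT 4, and none of the other 6 exceeded 7 counts.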

How the data were processed

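The authors quantified poly-A selected, stranded libraries with Salmon 1.8.0 on GRCm39 and used DESeq2 1.32.0, per the submitters' processing notes. The deposited table holds estimated counts per gene, already whole numbers, with no gene under 10 counts in all. For genes listed repeatedly under an Ensembl ID, 208 eWAT and 83 liver entries were dropped. Members, segment classes (textbook knowledge) and marker lists were chosen with earlier results of these data known.

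Genotypes were compared over all 10 eWAT libraries with edgeR 4.0.16 in R 4.3.3 (TMM, filterByExpr, quasi-likelihood test, Benjamini-Hochberg threshold 0.05), after the script was tested on simulated data. Alternatives were RLE scaling, no filter, a filter of 1 CPM in 5 libraries, DESeq2 1.42.0, a replicate block and leaving out each library. WT 4 was set beside the median of the other 4 WT libraries, with 0.5 CPM added, for members with a median of at least 10 counts there. Intervals are exact Poisson at 95%, the floor is 3 counts, and both cover counting error only.

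Values in every library were to be given for members past the threshold, the 3 highest of each class, and members with at least 10 counts in WT 4. Of the 45 in the last group, several are given only by their level in WT 4, a range or a fold. The upstream sequences were chosen after their genes' values were seen, and come from RefSeq on GRCm38.p6. Gene order is RefSeq's, and transcript lengths and shared words are GENCODE M21's. One gene of the marker lists is not reported here.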

Additional observations from a re-analysis of the deposited data

Results flagged for a closer look

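Each genotype group of 5 eWAT libraries was checked for a library far from the other 4, for each of the 61 tested members and for their summed level, 124 checks in all. In 12 of them 1 library stood apart by Dixon's criterion. The criterion was applied to CPM without logs, where a fall to near 0 is flagged only if the other 4 libraries lie close together. Lcn8, Cst11, Spag11b and Gpx5 were therefore not flagged, although they were far lower in WT 4. Chance meets that criterion in about 1 of 20 independent groups, but 11 of the 12 are in WT 4, a library already singled out, and the members share libraries, so the number is a description and not a test. WT 4 was the high library of its group for Defb22 (408 CPM), Defb28 (156 CPM), Defb38 (24.97 CPM), Defb11 (24.2 CPM), Defb40 (6.33 CPM) and Defb9 (2.11 CPM). Defb11 and Defb9 share 30.3% and 17.9% of their 31-base words with other genes, so their values are less certain. WT 4 was the low library for Spink11 (218 CPM), Defb21 (30.3 CPM), Defb15 (3.87 CPM), Defb41 (0.352 CPM) and Defb18 (0.0502 CPM). IR 4A 1 was the high library for Spink4 (1.57 CPM).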

How the results depend on the processing

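The genotype test called 0 genes higher and 2 lower over all genes. DESeq2 called 508 higher and 642 lower, and the cause was not tested. Genes called lower were 0 with no filter and 1 with the stricter filter. Leaving out 1 library gave 0 to 2 genes higher and 0 to 4 lower, with 2 and 4 only without IR 4A replicate 3. Members called higher were 6 with DESeq2 and 0 under every other alternative run, and members called lower were 0 under each. The members' median log2 fold change of 0.59 ranged from 0.44 (without WT 4) to 0.71 (without WT 5). Of the same-numbered libraries, only those of replicate 5 deviated together. The correlations for replicates 1 to 5 were -0.70, -0.73, -0.21, -0.71 and 0.67, and 1 of 5 matched best. With the replicate block 0 genes were called lower, 0 members were called, and the median was 0.69. The 17 members under 3 counts in WT 4 became 8 at exactly 0 and 23 under 10. The median log2 ratio of WT 4, -1.54, was -2.17 with 0.1 CPM added and -2.24 with a minimum of 50 counts. At 1 count, or 0.0502 CPM, WT 4 cannot tell low levels of a member from absence.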
